A study of Mus musculus with 12 samples.

Results

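The mouse genome holds many copies of ribosomal protein genes that carry the parent gene's symbol followed by "-ps", and 187 of them are among the 25093 genes counted here in muscle satellite cells. The members were chosen by name and annotation alone: the symbol had to begin with Rpl or Rps and contain "-ps", and the gene had to be annotated as a pseudogene. Of 190 symbols that fit the pattern, 3 were left out because they are annotated as protein-coding. In GENCODE vM21, 294 genes meet the same rule and 186 of these are in the count table, which the authors had filtered for 5 or more reads in 2 or more samples. The members are 180 processed pseudogenes and 7 transcribed processed pseudogenes. They are named after 56 parent genes, all present in the table, and lie on 20 chromosomes with 5 to 15 on each.

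Satellite cells are the stem cells of skeletal muscle. Quiescent satellite cells (QSCs, α7-INTEGRIN+ and CD34+) were sorted from all hindlimb muscles without injury. Activated satellite cells (ASCs, α7-INTEGRIN+ and VCAM1+) came from tibialis anterior and gastrocnemius muscles injured 3 days earlier with cardiotoxin. Both sorts left out cells positive for CD31, CD45, SCA1 or CD11b. Control mice were *Pax7* CreERT2/+, *Gli3*+/+, *R26R*-YFP and knockout mice were *Pax7* CreERT2/+, *Gli3* fl/fl, *R26R*-YFP (*Gli3*∆/∆ after recombination). Both genotypes received tamoxifen and carry the Cre, which is driven by *Pax7* in satellite cells and removes exon 8 of *Gli3*. The mice of these libraries were males by the study's description, and the study as a whole used mice of 2 to 10 months on a mixed 129SV and C57BL/6 background. Each QSC library (3 *Gli3*+/+ and 3 *Gli3*∆/∆) combined 2 to 3 mice and each of the 6 ASC libraries came from 1 mouse. The names of the ASC columns carry the state but no genotype, and the labels conflict on the genotype of 2 ASC samples, so the 6 ASC libraries were taken as 1 group and are called ASC libraries 1 to 6 in the order of their columns. Their genotypes were not analysed here, and no value was used to assign one.

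Ribosomal proteins form the small subunit of the ribosome (RPS proteins) and the large subunit (RPL proteins), and their mRNAs are among the most abundant in growing cells. Processed pseudogenes arise when an mRNA is copied back into DNA and inserted elsewhere in the genome, so they lack the introns of the parent and start out as near-exact copies of its mRNA. Most of them accumulate mutations with time. A short read from such a copy can fit the parent's mRNA as well, and the quantification used here (salmon) divides reads that fit several transcripts between them by estimate. In the 12 libraries, 44.3% to 51.0% of the values of all genes were not whole numbers. The totals ranged from 36886130 to 65750131 estimated counts, and values are given as CPM (library counts scaled to the same size after TMM normalization).

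The sequences of the members the genotype comparison turns on are set here beside the matching stretch of the parent mRNA, because the number of differing bases limits how many reads can tell them apart. The called member *Rps2-ps10* is not shown, and *Rpl3-ps1*, which was not called, is shown because its parent was. They are 60-base windows of the annotated transcripts of GENCODE vM21 on GRCm38, 5′ to 3′, credited to that annotation, and capitals mark the bases at which pseudogene and parent differ. Each was picked as the window without gaps that holds the most differing bases within the parent's longest open reading frame. The windows are therefore not typical stretches. The *Rps13-ps1* window is chr8:87048089-87048148 on the plus strand, that of *Rps18-ps3* is chr8:107263068-107263127 on the minus strand, that of *Rps15a-ps8* is chr4:53791359-53791418 on the minus strand and that of *Rpl3-ps1* is chrX:13202572-13202631 on the plus strand.
Rps13-ps1: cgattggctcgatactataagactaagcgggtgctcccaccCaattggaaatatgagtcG
Rps13: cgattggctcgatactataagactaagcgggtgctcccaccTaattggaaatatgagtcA
Rps18-ps3: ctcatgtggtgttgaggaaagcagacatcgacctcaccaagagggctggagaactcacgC
Rps18: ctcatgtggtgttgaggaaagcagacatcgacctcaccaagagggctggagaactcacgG
Rps15a-ps8: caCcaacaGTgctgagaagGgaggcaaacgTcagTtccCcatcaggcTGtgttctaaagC
Rps15a: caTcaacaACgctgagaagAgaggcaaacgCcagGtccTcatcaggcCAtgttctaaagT
Rpl3-ps1: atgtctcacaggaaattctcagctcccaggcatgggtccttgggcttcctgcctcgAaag
Rpl3: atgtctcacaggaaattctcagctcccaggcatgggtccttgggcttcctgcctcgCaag

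Over the aligned stretch, *Rps13-ps1* has 2 substitutions against *Rps13*, *Rpl3-ps1* has 2 against *Rpl3*, *Rps18-ps3* has 3 against *Rps18* and *Rps15a-ps8* has 30 against *Rps15a*. The members as a whole were 151 to 1758 bases long (median 480). Their median identity to the parent mRNA was 97.7%. There were 52 members at 99% identity or more, 13 of them identical to the parent over their whole length, and 16 members below 90%.

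Uniqueness was measured as the share of a member's 75-base windows that are found in no other gene's transcript. For 19 members this share was 0, and these 19 held 55.1% of the CPM of all members, with a median of 209.8 CPM over the 12 libraries and only 3 of them below 1 CPM. The other 168 members had a median of 0.265 CPM, and 130 of them were below 1 CPM. Of the 118 members with at least 50% of unique windows, 12 reached a mean of 1 CPM and 3 a mean of 10 CPM, namely *Rplp0-ps1*, *Rps15a-ps5* and *Rps15a-ps8*, which are named here after their values were seen. All of the 25 members with the highest mean had under 50% of unique windows, and those 25 held 95.9% of the members' CPM. Of the 19 members without a unique window, 13 are identical to the parent, so that their reads and the parent's cannot be told apart. The other 6 share 0.305% to 71.0% of their windows with the parent and the remainder with other genes.

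**Figure D1:**
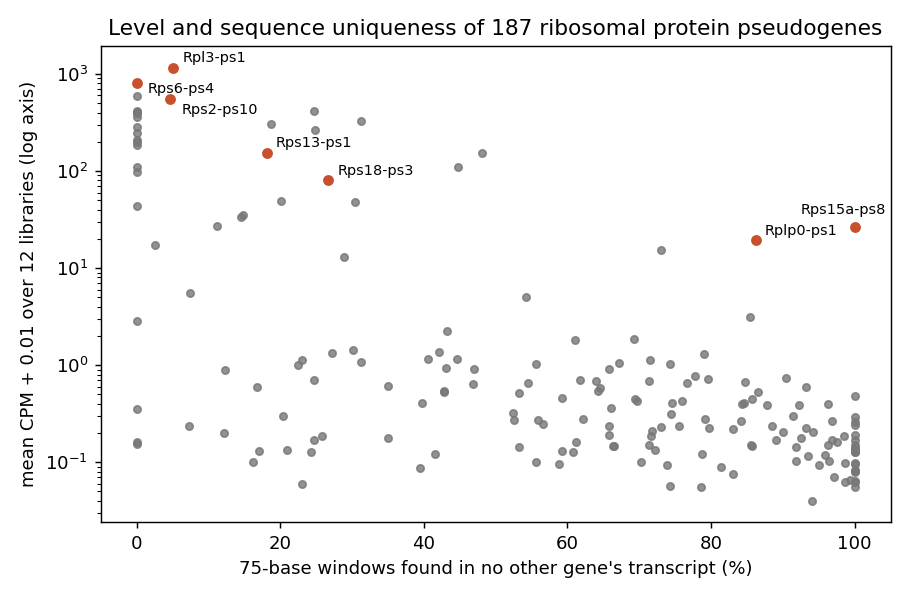
Mean level of each of the 187 pseudogenes over the 12 libraries (vertical, CPM + 0.01 on a log axis) against the percent of its 75-base windows found in no other gene's transcript (horizontal), 1 point per pseudogene, with 7 labelled members in colour. Members without unique windows sit mostly at the top left, and of the 118 members with at least 50% of unique windows only 3 reach 10 CPM.

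The 6 members with the highest level per length in QSCs were *Rps23-ps1*, *Rpl31-ps8*, *Rps6-ps4*, *Rpl28-ps1*, *Rpl3-ps1* and *Rpl17-ps3*. The level of *Rps23-ps1*, a copy of the mRNA of a small subunit protein, was 1424 ± 115.9 CPM per kilobase (SD, n = 6 QSC libraries). *Rpl31-ps8* was at 1217 ± 111.4, *Rps6-ps4* at 1169 ± 117.3 and *Rpl28-ps1* at 1015 ± 99.6 CPM per kilobase. These 4 are identical to their parents and hold no unique window. *Rpl3-ps1* followed at 937.8 ± 229.4 and *Rpl17-ps3* at 926.0 ± 114.3 CPM per kilobase, with 5.11% and 24.7% of unique windows. Neighbours in this order were closer to each other than 1 SD except at the first step, where *Rps23-ps1* and *Rpl31-ps8* differed by more than either SD, and at the step from *Rps6-ps4* to *Rpl28-ps1*. Across all members the mean over the 12 libraries was at least 100 CPM for 22, between 10 and 100 CPM for 13, between 1 and 10 CPM for 19 and below 1 CPM for 133, and 56 members were at 0 in at least 1 library.

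The members were compared between *Gli3*∆/∆ and *Gli3*+/+ mice in the 6 QSC libraries. These are separate mice on a mixed background, so the deletion cannot be told apart from other differences between them. Copies of 3 small subunit genes rose in *Gli3*∆/∆ QSCs (*Rps2-ps10*, *Rps13-ps1* and *Rps15a-ps8*) and a copy of another, *Rps18-ps3*, fell. These 4 calls of 187 members (3 higher and 1 lower, 2.14%) stand beside 0.351 percent of all genes called (edgeR's quasi-likelihood test; Benjamini-Hochberg adjusted p below 0.05 and 1.2-fold or more), of which 0.187 percent were called higher and 0.163 percent lower. DESeq2 called 7 members and limma voom 2, and 0 were called when the 6 ASC libraries also entered the estimate of the spread. Pseudogenes of other kinds were called at 31 of 2823, or 1.10%. At an unadjusted p under 0.05 there were 14 members (7.49%), beside 7.11 percent of all genes. The groups did not overlap for 27 members (24 higher and 3 lower in *Gli3*∆/∆, 14.4%), beside 13.1 percent of all genes. Over all genes the split was 1854 higher and 1433 lower. The median log2 fold change was 0.20 over the members and −0.03 over all genes, and 127 of 187 members had a value above 0. Of all genes, 11300 had a value above 0 and 13545 a value below 0.

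*Rps2-ps10* (ENSMUSG00000091957.3, chromosome 18, 965 bases, on the strand opposite to *Pde6a*) is a copy of *Rps2*, which encodes a small subunit protein, with 99.4% identity, 6 substitutions and 4.71% of unique windows. It was at 57.3, 64.3 and 55.5 CPM in the *Gli3*+/+ QSCs, against 533.9, 573.7 and 685.4 CPM in *Gli3*∆/∆ QSCs, so every knockout library lay far above every control. The log2 fold change was 3.31 ± 0.16 (SE, edgeR adjusted p = 9.76e-05). *Rps2* itself (chr17:24718116-24721929) was at 1320, 1345 and 1290 CPM against 720.9, 786.3 and 900.9 CPM, also without overlap but in the other direction, with a log2 fold change of −0.75 ± 0.14 that did not pass the test (adjusted p = 0.0789). The family sums given here add the parent and its members, and leave out copies whose names carry no "-ps". When the counts of *Rps2* and its 8 pseudogenes were added, the sums were 1380, 1412 and 1348 CPM against 1257, 1363 and 1589 CPM. These sums overlapped (log2 fold change −0.01 ± 0.14, adjusted p = 1.0).

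*Rps18-ps3* (ENSMUSG00000057657.4, chr8:107262793-107263248, 456 bases) copies *Rps18*, another small subunit gene, with 99.3% identity and 26.7% of unique windows. It shares 53.7% of its windows with *Rps18* and 67.8% with *Gm11361*, a gene outside the family sum. It was at 161.1, 284.3 and 185.6 CPM in the *Gli3*+/+ QSCs, against 2.58, 1.44 and 3.80 CPM in *Gli3*∆/∆ QSCs. The groups lay far apart, and the pseudogene fell by 6.37 on the log2 scale with an SE of 0.41 (edgeR adjusted p = 0.000384). *Rps18* (chr17:33951999-33956001) moved the other way, from 557.7, 329.2 and 495.2 CPM to 939.3, 1015 and 1206 CPM, with a log2 fold change of 1.16 ± 0.21 that did not pass the test (adjusted p = 0.0754). Their sum with the other members of the family was 719.4, 614.1 and 681.4 CPM against 942.8, 1018 and 1210 CPM. The sums did not overlap, and the log2 fold change of 0.62 ± 0.15 did not pass the test (edgeR adjusted p = 0.217, DESeq2 adjusted p = 0.0118, range over 12 alternatives 0.0118 to 0.662).

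*Rps13-ps1* (ENSMUSG00000066362.5, chr8:87047689-87048226, 538 bases, 99.6% identity, 18.1% of unique windows) copies the small subunit gene *Rps13*. It was at 1.53, 0.0820 and 1.02 CPM in the *Gli3*+/+ QSCs and at 175.4, 246.2 and 60.2 CPM in *Gli3*∆/∆ QSCs. It was thus near 0 in every control library and well above it in every knockout library, and the log2 fold change reached 7.58 ± 0.87 (edgeR adjusted p = 0.00742, limma voom 0.0703, range over 12 alternatives 1.28e-09 to 0.61). *Rps13* (chr7:116331505-116334195) was at 168, 179.5 and 201.2 CPM against 117.7, 89.5 and 207.2 CPM, and the groups overlapped (log2 fold change −0.44 ± 0.28, adjusted p = 0.855). The family sum was 450.9, 482 and 492.2 CPM against 489.4, 523.6 and 571.6 CPM. It also overlapped between the genotypes (log2 fold change 0.12, adjusted p = 0.922).

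*Rps15a-ps8* (ENSMUSG00000084403.1, chr4:53791070-53791456, 387 bases) is the most diverged of the 4, with 92.2% identity to the small subunit gene *Rps15a* and none of its 75-base windows in any other gene's transcript. It was at 0.396, 0.0996 and 0.162 CPM in *Gli3*+/+ and at 31.4, 45.5 and 11.9 CPM in *Gli3*∆/∆ QSCs, again without overlap. The log2 fold change was 7.13 ± 0.64 (edgeR adjusted p = 0.00182, limma voom 0.12, range over 12 alternatives 1.38e-17 to 0.521). *Rps15a* (chr7:118104372-118116188) was at 355.6, 345.8 and 344 CPM against 331.2, 334.1 and 402.9 CPM, a log2 fold change of 0.00 ± 0.13 (adjusted p = 1.0). For the family sum it was 0.07 ± 0.13 (adjusted p = 0.959). The sums were 501.4 to 533.9 CPM in *Gli3*+/+ and 511.1 to 611.8 CPM in *Gli3*∆/∆ QSCs. A pseudogene of at most 45.5 CPM adds little to such sums, so their overlap says little about *Rps15a-ps8*. No gene is annotated over *Rps13-ps1*, *Rps15a-ps8* or *Rps18-ps3* on either strand.

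Among the 56 parents, *Rpl3* was the gene that passed the test, where 0.351 percent of all genes did. *Rpl3* (chr15:80077791-80091868) encodes a protein of the large subunit and was at 551.9, 668.3 and 755.6 CPM in the *Gli3*+/+ QSCs, against 252.7, 242.4 and 285.6 CPM in *Gli3*∆/∆ QSCs. All knockout libraries lay below all controls, and *Rpl3* fell by 1.37 on the log2 scale with an SE of 0.17 (edgeR adjusted p = 0.00896). The adjusted p was 0.0589 without *Gli3*∆/∆ replicate 1 and 0.0575 without *Gli3*∆/∆ replicate 2, and ranged from 4.23e-11 to 0.166 over 12 alternatives. Its copy *Rpl3-ps1* (ENSMUSG00000084349.3, chrX:13202571-13203780, 1210 bases, 99.8% identity) was the member with the highest mean CPM over the 12 libraries, 1163. In QSCs it was at 962.6, 993 and 760.4 CPM against 1252, 1325 and 1517 CPM. The groups did not overlap, and the log2 fold change of 0.56 ± 0.15 did not pass the test (adjusted p = 0.307). The family sum was at 1515, 1662 and 1516 CPM against 1505, 1567 and 1802 CPM, a log2 difference of 0.02 ± 0.13 (adjusted p = 0.999).

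**Figure D2:**
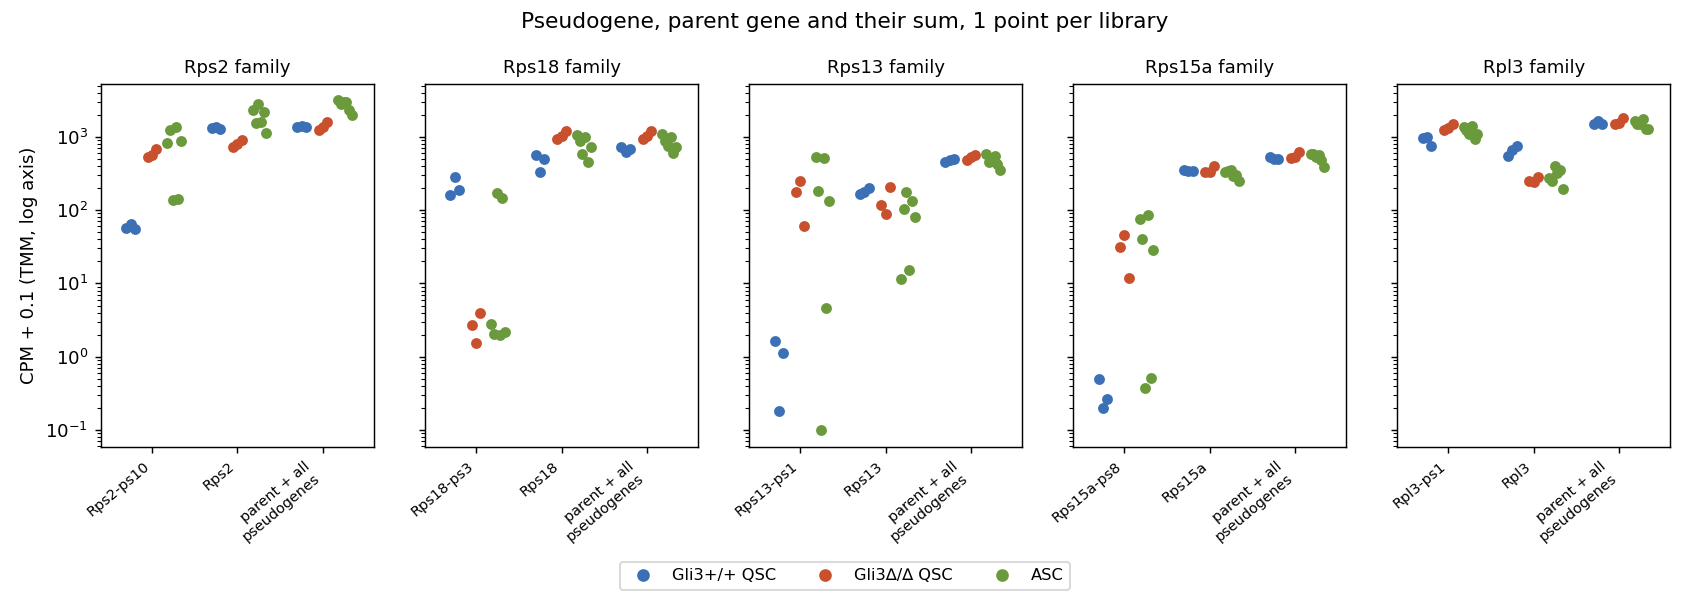
Level of a pseudogene, its parent and the sum of the parent with all its pseudogenes in 5 families (vertical, CPM + 0.1 on a log axis), 1 point per library, coloured by group. In the *Rps2*, *Rps13*, *Rps15a* and *Rpl3* families the sums of the *Gli3*+/+ and *Gli3*∆/∆ QSC libraries overlap although the pseudogenes do not, and in the *Rps18* family the sums do not overlap either. *Rps15a-ps8* is a small part of the *Rps15a* sums, so their overlap says little about it.

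With every member added to its parent, none of the 56 family sums was called by edgeR, beside 0.333 percent of the genes in that table. There were 5 sums with an unadjusted p under 0.05 (8.93%, beside 7.11 percent of all genes in the table of single genes), DESeq2 called 1 (*Rps18*) and limma voom 0. The sums did not overlap for 17 families (30.4%, beside 13.1 percent of all genes in the table of single genes), all higher in *Gli3*∆/∆ QSCs, and the median log2 fold change of the sums was 0.13. Of all single genes without overlap, 1854 were higher and 1433 lower. The wider list of 85 ribosomal protein genes held 1 call (*Rpl3*, lower; 1.18%, beside 0.351 percent of all genes) and had a median log2 fold change of 0.13, with 70 genes above 0. There were 25 genes of the list without overlap (29.4%, beside 13.1 percent of all genes), of which 23 were higher.

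**Figure D3:**
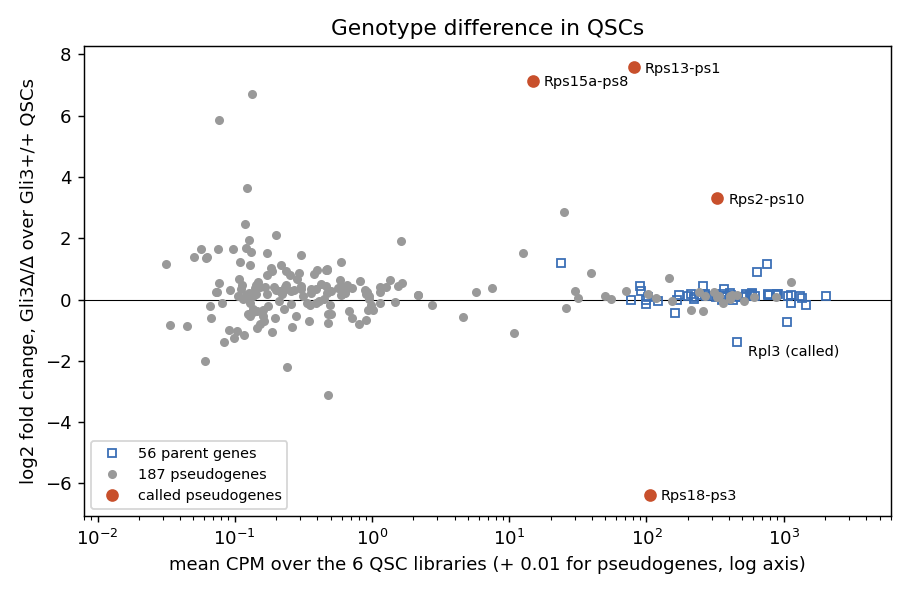
Log2 fold change of *Gli3*∆/∆ over *Gli3*+/+ QSCs (vertical) against the mean CPM over the 6 QSC libraries (horizontal, log axis) for 187 pseudogenes and 56 parents. The 4 called pseudogenes stand at 7.58, 7.13, 3.31 and −6.37, and the called parent *Rpl3* at −1.37.

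The 6 ASC libraries fell apart for the same 4 pseudogenes. *Rps2-ps10* was at 828.4, 1248, 137.1, 1374, 142.3 and 874.8 CPM in ASC libraries 1 to 6. *Rps18-ps3* was at 2.69, 1.97, 171.4, 1.85, 147.2 and 2.09 CPM in the same order. ASC libraries 3 and 5 were therefore the lowest for *Rps2-ps10* and the highest for *Rps18-ps3*. *Rps13-ps1* was at 532.4, 179.7, 0, 521.6, 4.50 and 132.8 CPM. *Rps15a-ps8* was at 75.3, 40.9, 0.279, 84.7, 0.415 and 28.2 CPM. Libraries 3 and 5 were again the lowest for both. *Gli3* (chr13:15463235-15730026) was at 25.5, 27.1, 60.4, 16.7, 59.2 and 36.8 CPM in these libraries, highest in libraries 3 and 5. The study describes 3 ASC samples of each genotype, and no genotype was assigned from these values. In QSCs *Gli3* was at 11.3, 9.63 and 9.40 CPM in *Gli3*+/+ and 9.58, 10.7 and 6.27 CPM in *Gli3*∆/∆ libraries (log2 fold change −0.22 ± 0.22, edgeR adjusted p = 0.916), so its total count, which includes the exons that stay after recombination, did not check the QSC labels.

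The share of a family's counts that fell on pseudogenes put the same values on a common scale. In the *Rps2* family it was 4.32%, 4.73% and 4.25% in the *Gli3*+/+ QSC libraries and 42.6%, 42.3% and 43.3% in the *Gli3*∆/∆ libraries. In ASC libraries 1 to 6 it was 26.3%, 45.0%, 4.82%, 46.8%, 6.26% and 44.1%. In the *Rps18* family it was 22.5%, 46.4% and 27.3% in *Gli3*+/+ and 0.376%, 0.231% and 0.371% in *Gli3*∆/∆ QSC libraries. Over all 56 families together it was 21.8%, 22.1% and 20.7% in *Gli3*+/+ and 22.9%, 23.6% and 22.8% in *Gli3*∆/∆ QSCs. The means of 21.5% ± 0.692 and 23.1% ± 0.376 (SD, n = 3 each) differed by 1.60 percentage points with no overlap, and the two-sided exact permutation test gave p = 0.1, the smallest value 3 against 3 libraries can give. Without the member of highest mean count the difference was 0.925 percentage points (exact permutation p = 0.1), and as a median over families it was −0.117 (exact permutation p = 0.9), the opposite direction. Per family in QSCs, the pseudogenes took over 50% of the counts in 12 families, led by *Rpl36a* at 76.2%, and under 1% in 27 families, with a median of 1.74%. The *Rpl36a* family includes *Rpl36a-ps3*, which shares 0% of its windows with *Rpl36a* and 69.6% with *Rpl36al*, a gene outside the family sum.

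**Figure D4:**
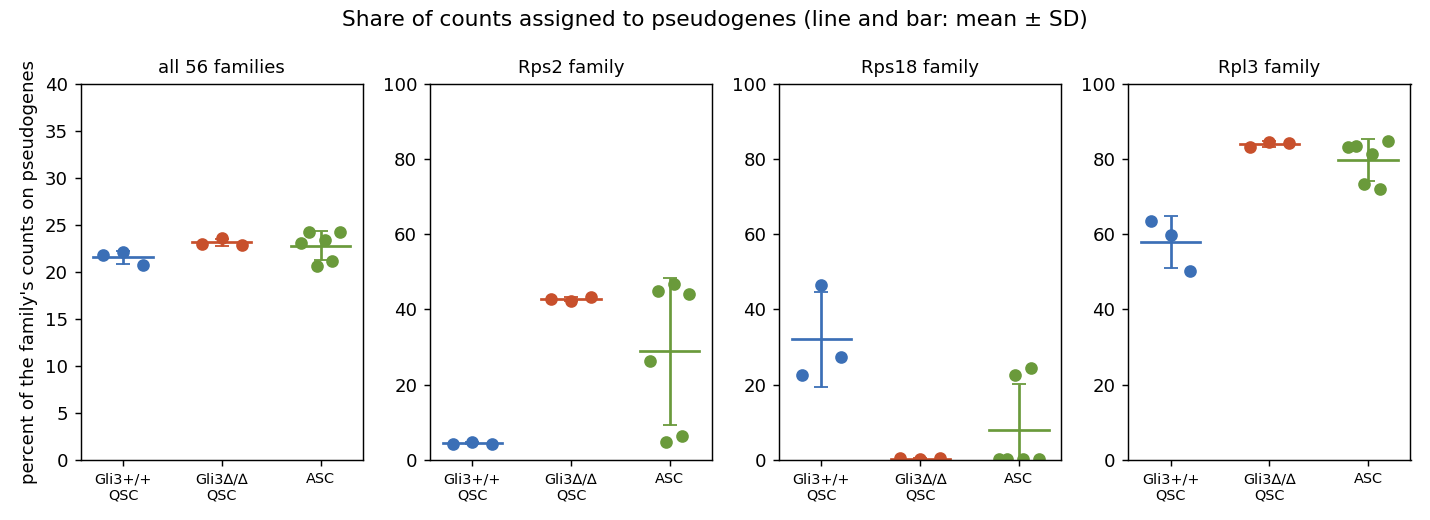
Percent of counts assigned to pseudogenes, over all 56 families and in the *Rps2*, *Rps18* and *Rpl3* families (vertical; the first panel ends at 40), 1 point per library with the mean and SD of each group. For all families the groups lie between 20.6% and 24.2%, while in the *Rps2* family *Gli3*+/+ QSCs are at 4.25% to 4.73% and *Gli3*∆/∆ QSCs at 42.3% to 43.3%.

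The marker sums of other cells that did not overlap between the genotypes were those of fibro-adipogenic and Schwann cells. The sort removed SCA1+ cells, and *Ly6a*, the gene of SCA1, is among the fibro-adipogenic markers. The sum of 4 fibro-adipogenic markers was 383.9 to 465 CPM in *Gli3*+/+ and 480.5 to 546.2 CPM in *Gli3*∆/∆ QSCs, that of 4 Schwann cell markers was 67.6 to 96.3 CPM against 32.5 to 48.7 CPM, and none of these 8 genes was called. Their part in the values of the pseudogenes was not tested. The sum of 8 satellite cell markers, *Pax7* among them, was 3789 to 6067 CPM in *Gli3*+/+ and 4070 to 4486 CPM in *Gli3*∆/∆ QSCs. In these sorted populations, fewer cells of a type and less RNA per cell cannot be told apart.

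The comparison of ASCs with QSCs asked how the members differ between cell states. The 2 groups also differ in the muscles taken, the sort markers and the pooling of mice, which cannot be told apart from state. Each value is the ASC group against the mean of both QSC groups on the log2 scale, so a pseudogene that is near 0 in 1 genotype of QSCs has a low QSC reference. Of 187 members, 28 were called (15 higher and 13 lower in ASCs, 14.97%), beside 58.9 percent of all genes. The 13 lower calls became 8 without *Gli3*+/+ replicate 2 (15 higher), and against *Gli3*+/+ QSCs alone there were 19 calls, 13 higher and 6 lower. Other pseudogenes were called at 38.0% and protein-coding genes at 67.5%. At an unadjusted p under 0.05 there were 35 members (18.7%), beside 63.5 percent of all genes. The groups did not overlap for 10 members (5.35%), beside 39.7 percent of all genes. The median log2 fold change was −0.03 over the members and 0.01 over all genes. Most members are low, and 133 of 187 were below 1 CPM. Of the 56 parents, 22 were called (8 higher and 14 lower), and of the 56 family sums 19 (8 higher and 11 lower), beside 59.2 percent of the genes in that table. The list of 85 ribosomal protein genes held 37 calls, 15 higher and 22 lower.

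For 14 of the 28 called members the parent was called in the same direction, for the other 14 it was not called, and for 0 it was called in the opposite direction. The 28 members have 21 distinct parents and can share reads with them, so they are not independent. Of all 56 parents, 22 were called (39.3%). The *Rps2* family held 6 of the 15 rises, and all of its 8 members had a log2 fold change above 0. *Rps2* itself was at 720.9 to 1345 CPM in QSCs (median 1096) and at 1117 to 2804 CPM in ASCs (median 1875), ranges that overlap, and rose by 0.90 ± 0.20 (log2, SE, edgeR adjusted p = 0.00166). *Rps2-ps10* rose by 2.03 ± 0.52 (adjusted p = 0.00456), from a range of 55.5 to 685.4 CPM in QSCs to 137.1 to 1374 CPM in ASCs that also overlaps. The other 7 copies had means of 0.196 to 1.05 CPM over the 12 libraries, and 5 of them were called. The lowest of these 7 by mean, *Rps2-ps4*, was at 0 to 0.105 CPM in QSCs and 0.124 to 0.479 CPM in ASCs. The sum of the family rose by 0.95 ± 0.13 (adjusted p = 3.5e-05) without overlap between states.

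Among members with a mean of at least 1 CPM, the largest rises were those of *Rps27a-ps2*, *Rpl27-ps3*, *Rps13-ps1* and *Rps15a-ps8*. *Rpl27-ps3* (chromosome 18, 411 bases) is identical to the mRNA of *Rpl27*, a large subunit gene, and has no unique window. It was at 0 to 0.537 CPM in QSCs (median 0.262) and at 1.92 to 8.94 CPM in ASCs (median 4.84), with no overlap and the log2 fold change was 4.94 ± 0.77 (edgeR adjusted p = 0.000124). *Rpl27* rose from 69.4 to 89.98 CPM in QSCs (median 75.6) to 112.6 to 186.8 CPM in ASCs (median 157.3), a log2 fold change of 0.97 ± 0.13 (adjusted p = 3.17e-05). The sum of the family rose by 1.01 ± 0.13 (edgeR adjusted p = 2.04e-05). As an identical copy, *Rpl27-ps3* has values that depend on how shared reads were divided. *Rps27a-ps2*, a copy of the gene for a fusion of ubiquitin and a small subunit protein, was at 0 to 2.29 CPM in QSCs and at 20.0, 0.228, 3.70, 0.441, 39.6 and 0 CPM in ASC libraries 1 to 6. Only ASC libraries 1, 3 and 5 lay above the QSCs. Its log2 fold change of 5.22 ± 1.74 (adjusted p = 0.0208) rests on these libraries, and the adjusted p was 0.0559 without ASC library 5 and ranged from 0.00517 to 0.191 over 17 alternatives. *Rps27a-ps2* has 7.38% of unique windows and shares 80.9% with *Rps27a*, so its values can depend on how shared reads were divided. For the *Rps27a* family sum the log2 fold change was 0.08 ± 0.13 (edgeR adjusted p = 0.613). *Rps13-ps1* (4.30 ± 1.35, adjusted p = 0.0152) and *Rps15a-ps8* (3.94 ± 1.15, adjusted p = 0.0105) were low in ASC libraries 3 and 5 and high in the other 4, as given above, and overlapped with the QSCs. In limma voom these values were 0.41 (adjusted p = 0.923) and 1.53 (adjusted p = 0.555), the highest p of 17 alternatives for each.

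The largest falls were those of *Rps19-ps3*, *Rps7-ps2*, *Rpl17-ps3* and *Rpl5-ps2*. *Rps19-ps3* (chr4:147821777-147822202, 79.0% of unique windows), a copy of a small subunit gene, was at 1.80 to 2.79 CPM in QSCs (median 2.07) and at 0.186 to 0.841 CPM in ASCs (median 0.401). The states did not overlap, and it fell by 2.22 on the log2 scale with an SE of 0.36 (edgeR adjusted p = 0.000164). *Rps19* fell by 0.50 with an SE of 0.11 (adjusted p = 0.00156), from 694.1 to 948.4 CPM in QSCs to 469.3 to 654 CPM in ASCs. *Rps7-ps2* (chr12:3521922-3523268, 85.5% of unique windows) was at 1.33 to 6.25 CPM in QSCs (median 4.93) and at 0.820 to 2.41 CPM in ASCs (median 1.73). These ranges overlap, and it fell by 1.41 with an SE of 0.36 (adjusted p = 0.00473), while *Rps7* was at −0.02 ± 0.12 on that scale (adjusted p = 0.893). Against its named parent, the transcript of *Rps7-ps2* aligned over 18 of its 1347 bases, so its sequence does not bear out its name in this annotation.

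*Rpl17-ps3* (chr12:67510756-67511311) is a copy of the large subunit gene *Rpl17* at a far higher level. It was at 439.6 to 624.6 CPM in QSCs (median 505.1) and at 212.6 to 405.6 CPM in ASCs (median 307.6), and fell by 0.72 on the log2 scale with an SE of 0.15 (edgeR adjusted p = 0.000976). *Rpl17* fell by 0.43 with an SE of 0.10 (adjusted p = 0.00207) and the sum of the family by 0.57 with an SE of 0.10 (adjusted p = 0.000393), and for all 3 the states did not overlap. *Rpl5-ps2* fell by 0.42 on the log2 scale with an SE of 0.16 (adjusted p = 0.0429), with 4.56 to 7.86 CPM in QSCs and 3.79 to 4.66 CPM in ASCs. Its call was lost under 12 of 17 alternatives.

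Of the members with the highest level per length, *Rpl31-ps8* was at 417.8 to 532.9 CPM in QSCs and 316.4 to 420.1 CPM in ASCs and fell by 0.33 on the log2 scale with an SE of 0.09 (edgeR adjusted p = 0.00708). *Rps6-ps4* was at 805.8 to 1044 CPM and 618.7 to 822.2 CPM and fell by 0.29 with an SE of 0.10 (adjusted p = 0.0266). Their parents *Rpl31* (−0.06, adjusted p = 0.665) and *Rps6* (−0.13, adjusted p = 0.342) did not pass the test. Both pseudogenes are identical to their parents, so these values depend on how shared reads were divided. Windows of *Rps6-ps4* are found in 11 other genes, while the *Rps6* sum holds *Rps6* and 4 members, so a sum removes this dependence only within the family. The family sums had log2 fold changes of −0.24 (adjusted p = 0.036) for *Rpl31*, under the 1.2-fold minimum, and −0.24 (adjusted p = 0.0715) for *Rps6*. *Rps23-ps1* (−0.03, adjusted p = 0.796), *Rpl28-ps1* (−0.18, adjusted p = 0.138) and *Rpl3-ps1* (0.10, adjusted p = 0.51) were not called.

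**Figure D5:**
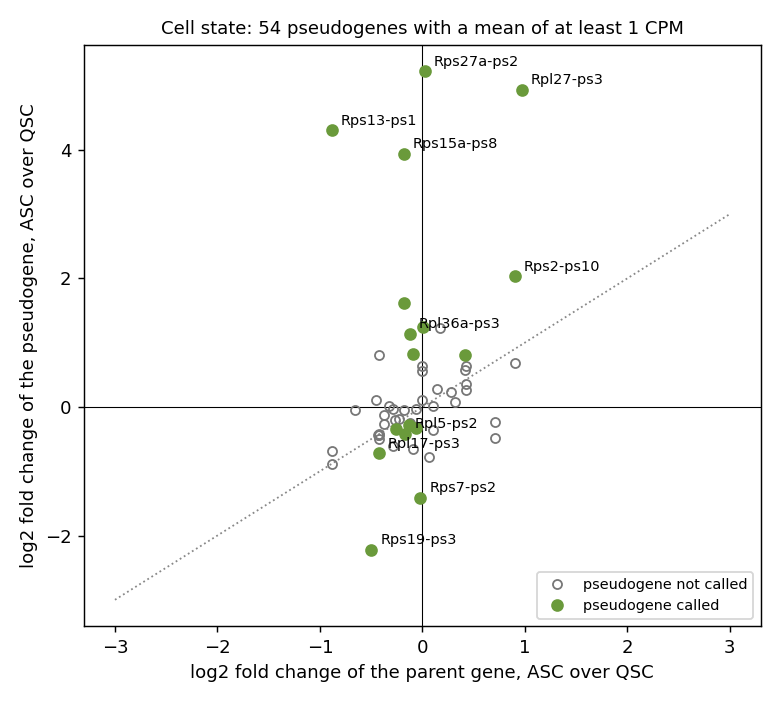
Log2 fold change between ASCs and QSCs of the 54 pseudogenes with a mean of at least 1 CPM (vertical) against that of the parent gene (horizontal), with the dotted line marking equal values. *Rps27a-ps2*, *Rpl27-ps3*, *Rps13-ps1* and *Rps15a-ps8* stand at 3.94 to 5.22 while their parents lie between −0.88 and 0.97, and *Rps19-ps3* and *Rps7-ps2* are the lowest at −2.22 and −1.41.

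The families with the most members were those of *Rpl31* (14 members), *Rps12* (13) and *Rpl21* (12), and in each a single member was called between states. In the *Rpl31* family 13 members were below 1 CPM and the exception was *Rpl31-ps8*. In the *Rps12* family 12 were below 1 CPM, and the exception, *Rps12-ps3*, has no unique window. It was at 46.6 to 83.5 CPM in QSCs (median 75.2) and 55.6 to 176.9 CPM in ASCs (median 118.7) and rose by 0.82 ± 0.24 (log2, SE, edgeR adjusted p = 0.0112) with overlapping ranges, while the value of *Rps12* was −0.09 (adjusted p = 0.626). In the *Rpl21* family 11 were below 1 CPM. *Rpl21-ps10* was at 0.857 to 1.97 CPM in QSCs and 0.449 to 0.852 CPM in ASCs and fell by 0.72 with an SE of 0.28 (adjusted p = 0.0419), and *Rpl21* fell by 0.29 (adjusted p = 0.0257).

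The level summed over all members overlapped between the states. The 187 pseudogenes together were at 8617 ± 1057 CPM in QSCs and 8616 ± 1212 CPM in ASCs (SD, n = 6 each, two-sided exact permutation p = 0.996), and took 22.3% ± 1.01 and 22.8% ± 1.54 of their families' counts (exact permutation p = 0.55). As a median over families, the share was higher in ASCs by 0.926 percentage points (exact permutation p = 0.0411). The cells differed clearly in other genes. *Mki67*, a gene of dividing cells, was at 0.984 to 8.89 CPM in QSCs and 381.6 to 560.5 CPM in ASCs, and the sum of 8 satellite cell markers was 1456 to 2461 CPM in ASCs. The sum of 5 macrophage and leukocyte markers was 7.46 to 13.2 CPM in QSCs and 67.7 to 1373 CPM in ASCs, although the sort removed CD45+ and CD11b+ cells. The sum of 4 fibro-adipogenic markers was 383.9 to 546.2 CPM in QSCs and 12.9 to 138.1 CPM in ASCs, and that of 4 myofiber markers 31.7 to 54.4 CPM and 71.3 to 304.8 CPM. Of the 4 fibro-adipogenic markers, 2 were called higher and 1 lower in ASCs, so the lower sum does not hold for each gene. In ASCs, sums of 4 markers were 20.3 to 842 CPM for Schwann, 47.7 to 324.7 for endothelial and 20.0 to 520.8 for erythroid cells. In QSCs they were 32.5 to 96.3, 131.4 to 208.7 and 33.4 to 370 CPM, ranges that overlap those of ASCs. The part of any of these kinds of cells in the state differences of the pseudogenes was not tested.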

How the data were processed

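RNA of sorted satellite cells was sequenced by the authors from 20 ng of total RNA with a directional polyA protocol. According to the methods, the authors assigned reads to GRCm38 GENCODE vM19 transcripts with salmon, summed them to genes with tximport, filtered for 5 or more reads in 2 or more samples and deposited estimated counts without normalization. Their 4 tables of DESeq2 comparisons hold fold changes and p-values that were not used here, and only the gene biotype was read from 1 of them. The 6 QSC columns carry sample titles, and the 6 ASC columns were tied to the group ASC by name only.

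After rounding, the estimated counts went into edgeR 4.0.16 in R 4.3.3 (TMM, quasi-likelihood test, Benjamini-Hochberg adjustment over all 25093 genes), with calls at an adjusted p below 0.05 together with a change of 1.2-fold or more. The genotype was tested in the 6 QSC libraries, and the state in all 12 as ASC against the mean of both QSC groups. Displayed CPM use the unrounded counts and 1 TMM scaling over the 12 libraries. The same tests were run on a table in which each member's counts were added to its parent. SE is the absolute log2 fold change divided by the square root of F. Shares were compared with two-sided exact permutation tests. DESeq2 1.42.0, limma 3.58.1 voom with sample weights, DESeq2 size factors, filterByExpr, a replicate block and leaving out each library were alternatives. The edgeR test was checked on simulated counts of single genes for the genotype and the state comparison. That simulation changed only well-counted genes, gave all genes the same spread and held no shared reads. It therefore does not show how the test does for most members. P-values measure the spread between QSC pools or ASC mice. Totals of 36886130 to 65750131 counts per library limit the precision at low CPM.

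Positions and sequences come from GENCODE vM21 on GRCm38, where 96.3% of gene identifiers carry the same version. Members were aligned to the parent transcripts with Biopython 1.88, and windows of 75 bases were matched to all other transcripts. The text names members called between genotypes, the 6 with the highest CPM per kilobase in QSCs, the 4 largest rises and 4 largest falls called between states with a mean of at least 1 CPM, their parents, and the 3 families with most members; other names were chosen after their values were seen. The members, lists and tests were chosen with earlier results of these data known. Fitting all 12 libraries for the genotype was added after the data had been seen.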

Additional observations from a re-analysis of the deposited data

How the results depend on the processing

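Counts of members called between genotypes moved from 4 to 7 in DESeq2 and 2 in limma voom, and to 0 when all 12 libraries shared 1 estimate of the spread, an alternative chosen after the data had been seen. The ASC libraries, which lie far apart for these members, enter that estimate, and the log2 fold changes stayed at 3.34 for *Rps2-ps10* (adjusted p = 0.404), −6.34 for *Rps18-ps3* (0.666), 7.14 for *Rps15a-ps8* (0.521) and 7.59 for *Rps13-ps1* (0.61). DESeq2 added *Rpl9-ps7*, *Rplp0-ps1* and *Rpl3-ps1* (adjusted p = 0.0463), and voom lost *Rps15a-ps8* (0.12) and *Rps13-ps1* (0.0703). Parent genes called between genotypes were 1, with 3 in DESeq2, 2 in voom and 0 with all 12 libraries. *Rps2* passed in DESeq2 (0.00011) and voom (0.041), and *Rps18* in DESeq2 (5.62e-05). Family sums called between genotypes went from 0 to 1 in DESeq2. Against *Gli3*+/+ QSCs alone, ASCs gave 19 called members (13 higher and 6 lower, main value 28), 14 called parents (main value 22) and 12 called family sums (main value 19). In voom the state calls of members were 14 higher and 19 lower. As a median over families, the pseudogene share differed between genotypes by −0.117 percentage points (exact permutation p = 0.9), the opposite direction to 1.60 (0.925 without the member of highest mean count), and between states by 0.926 (p = 0.0411), past the threshold, where the pooled share differed by 0.448. For these changes the cause was not tested.

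Leaving out each library in turn gave 4 to 4 called members, 0 to 1 parents (0 without *Gli3*∆/∆ replicate 1 or 2) and 0 to 0 family sums between genotypes, a difference in share of 1.21 to 1.87, and between states 22 to 30 members, 18 to 22 parents, 15 to 20 family sums and a difference in share of 0.132 to 0.884. *Rps27a-ps2* lost its state call under 6 of 17 alternatives, among them voom (adjusted p = 0.119) and *Gli3*+/+ QSCs alone (0.191).

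The replicate number as a block gave 4 members, 1 parent and 0 family sums between genotypes. Same-numbered *Gli3*+/+ and *Gli3*∆/∆ libraries correlated at −0.276, −0.0209 and −0.066 in their deviations, so the numbers do not pair the samples. Depth limits the 133 members below 1 CPM. Shared sequence limits the 19 members without unique windows most, and also members with few of them. Of the 4 members called between genotypes, *Rps2-ps10* has 4.71% of unique windows, *Rps13-ps1* 18.1%, *Rps18-ps3* 26.7% and *Rps15a-ps8* 100%.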
